A study of Homo sapiens with 36 samples.

Results

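The 40 genes described here encode receptors for cytokines, growth factors and chemokines, apart from SPRED1, which encodes an inhibitor of the RAS pathway that such receptors feed. They were listed by name and are 40 of the 19970 protein-coding genes on chromosomes 1 to 22 and X in the annotation used. A gene was said to have a peak in a library when the summit of at least 1 deposited peak of that library lay in the gene body or within 10 kb of it. Of the 40 genes, 21 had a peak in at least 1 library (52.5%, against 42.1% of all protein-coding genes), and 19 had none in any library.

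Cytokine and growth factor receptors sit on the cell surface and turn an outside ligand into a signal inside the cell. Those of the class III kinase family, such as FLT3, phosphorylate their targets themselves, while most interleukin receptors work through JAK kinases and STAT proteins. The TGF-beta superfamily receptors are serine/threonine kinases that phosphorylate SMAD proteins. GATA2 is a zinc finger protein that binds DNA at GATA motifs and controls genes of blood stem and progenitor cells, and during red cell formation it is replaced at many sites by GATA1. T354M is a substitution in the second of its zinc fingers that is known from families with inherited myelodysplastic syndrome and leukaemia.

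Occupancy was measured by CUT&Tag, in which an antibody directs a transposase to its target on chromatin, so that the DNA beside the target is cut out and sequenced. The cells were HUDEP-2, an immortalized human erythroid progenitor line that was grown here with erythropoietin, stem cell factor, dexamethasone and doxycycline. Wild-type cells with a lentiviral empty vector were profiled with anti-GATA2. GATA2-low cells, labelled GATA2+/-, were profiled with anti-GATA2 and with anti-HA after infection with the empty vector, with HA-tagged GATA2 (HA-GATA2) or with HA-tagged GATA2 carrying T354M (HA-T354M). That gave 7 groups of 4 libraries. Infected cells of every group were sorted for GFP, and the labels do not say how many clones the GATA2-low line holds. The anti-GATA2 antibody can see the cells' own GATA2 as well as the tagged protein, whereas anti-HA sees the tag alone. The empty vector has no tag, so its anti-HA libraries give the background of that antibody. Nothing in the labels says whether the 4 replicates of a group were grown apart, so p-values here speak of library-to-library spread that could be technical. The material is bulk chromatin, in which more cells with an occupied site and more occupancy per cell cannot be told apart.

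At 3 of the genes a peak that recurred across libraries overlapped the bases just before an annotated transcription start. The 250 bases before that start are printed here because they are the promoter stretches on which these peaks fell. They are RefSeq sequences of build GRCh38.p14, written 5′ to 3′ on the strand of the gene, in lower case with matches to a GATA hexamer in capitals. IL6ST lies on the minus strand (chr5:55994964-55995213), and IL9R (chrX:155997446-155997695) and ACVR1B (chr12:51951449-51951698) lie on the plus strand.
IL6ST promoter: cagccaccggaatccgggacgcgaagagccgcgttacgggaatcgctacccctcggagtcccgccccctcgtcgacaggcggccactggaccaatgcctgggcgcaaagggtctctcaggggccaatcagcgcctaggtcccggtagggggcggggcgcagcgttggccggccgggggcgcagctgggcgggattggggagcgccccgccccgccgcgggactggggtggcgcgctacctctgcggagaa
IL9R promoter: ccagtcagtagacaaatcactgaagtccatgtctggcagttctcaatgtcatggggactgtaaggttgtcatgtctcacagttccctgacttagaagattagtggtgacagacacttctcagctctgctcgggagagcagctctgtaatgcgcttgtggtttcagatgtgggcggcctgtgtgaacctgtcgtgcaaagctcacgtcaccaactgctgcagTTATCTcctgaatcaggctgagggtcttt
ACVR1B promoter: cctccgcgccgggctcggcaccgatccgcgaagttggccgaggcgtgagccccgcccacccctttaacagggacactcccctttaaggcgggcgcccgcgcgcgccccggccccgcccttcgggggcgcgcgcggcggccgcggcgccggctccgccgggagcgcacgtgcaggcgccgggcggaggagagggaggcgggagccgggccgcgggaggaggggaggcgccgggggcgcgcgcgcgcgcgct

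The hexamers searched were AGATAA or, with another last base, AGATAG, and those with T as the first base, TGATAA or, with another last base, TGATAG, each on both strands. The IL9R promoter held 1 match, which reads TTATCT on the printed strand and begins 29 bases before the start. No match was found in the printed IL6ST and ACVR1B stretches, which have a GC content of 73.6% and 82.8% against 50.4% for IL9R. Of 34961 annotated promoter stretches of this length, 22.3% held at least 1 such hexamer. Counted by gene, 11 of the 37 receptor genes with a listed start had one at any of their starts. Some of these genes have several starts, so the share by gene cannot be set against the share by stretch. The E-box CANNTG, a motif often found near GATA sites in blood cells, was matched 1 time in IL6ST, 2 times in IL9R and 1 time in ACVR1B, and 61.8% of the 34961 stretches held it. These matches describe letters in the window and do not show that a factor binds there.

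The lists differed in length, which bears on every count below. After peaks on other sequences were left out, the anti-GATA2 lists held 7625 ± 1247 peaks (SD, n = 4) in wild-type cells, 2430 ± 842 in GATA2-low empty-vector cells, 10395 ± 2274 with HA-GATA2 and 4830 ± 1528 with HA-T354M. The anti-HA lists held 4248 ± 1758 peaks with HA-GATA2, 595 ± 166 with HA-T354M and 4 ± 2.16 with the empty vector. Read totals were not among the values used, and the lowest background of each list, recovered from the deposited values, served as a measure of depth on the scale the peak caller used. It was 0.222 to 0.302 fragments in the wild-type libraries and 0.153 to 0.213 in the GATA2-low empty-vector libraries, so depth moved with that comparison. It was 0.28 to 0.294 with HA-GATA2 and 0.294 to 0.305 with HA-T354M under anti-GATA2. Depth thus also moved with the comparisons of either tagged protein with the GATA2-low empty vector. Of 8 erythroid marker genes, 5 had a peak in all 16 anti-GATA2 libraries, while of 3 markers each for T lymphocytes, B lymphocytes and monocytes or neutrophils 0 did. Of 3 mast cell markers, HDC did. Single markers departed from this split. The T lymphocyte gene CD247 had an anti-GATA2 peak in 4 wild-type and 4 HA-GATA2 libraries, and the B lymphocyte gene CD79A in 3 and 3. Of the erythroid genes, HBA1 had no peak in any library and HBG1 had peaks in HA-GATA2 cells alone. This is occupancy, and expression was not measured here.

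**Figure D1:**
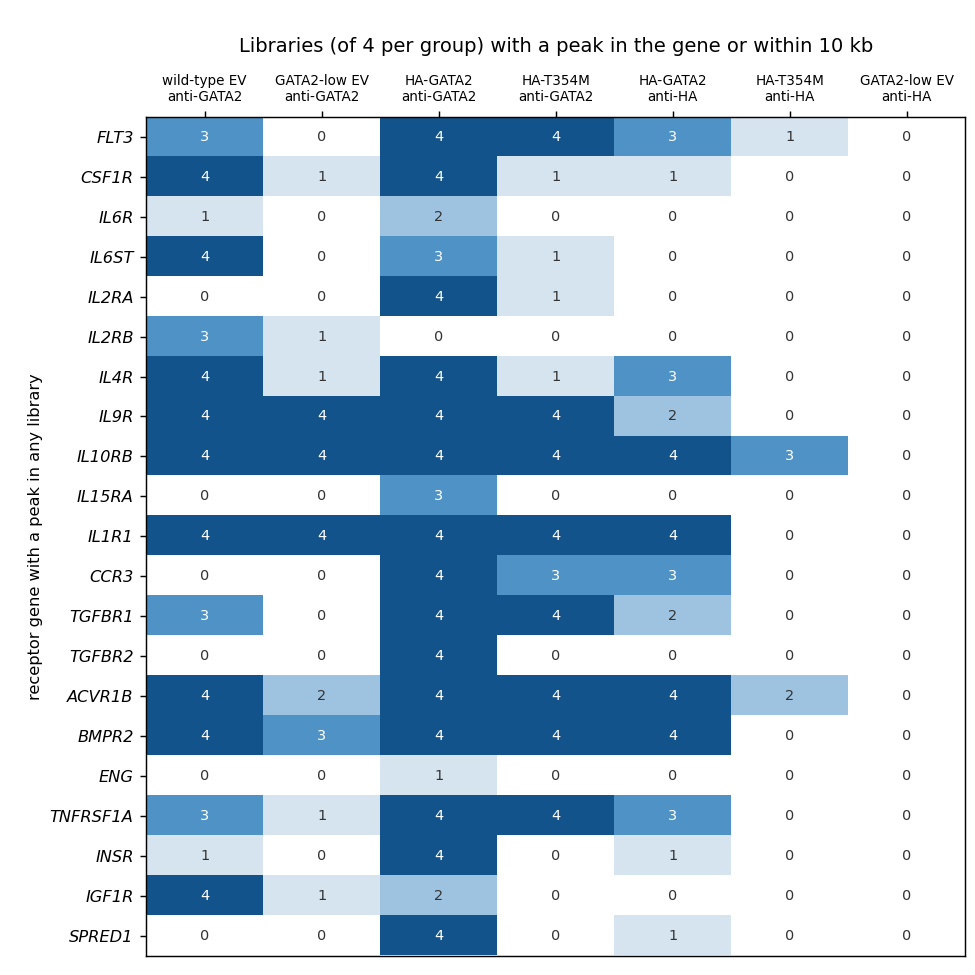
Each cell gives the number of libraries, of 4 per group, with a peak in the gene body or within 10 kb for the 21 receptor genes with a peak in any library; EV is the empty vector. The IL9R, IL10RB and IL1R1 rows show 4 in each of the 4 anti-GATA2 columns, and the empty-vector anti-HA column holds 0 throughout.

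The number of receptor genes with a peak followed the group. In the wild-type anti-GATA2 libraries 11, 12, 15 and 12 of the 40 genes had a peak (12.5 ± 1.73, SD, n = 4). In the GATA2-low empty-vector libraries the numbers were 4, 4, 4 and 10 (5.5 ± 3). With HA-GATA2 they were 15, 17, 20 and 19 (17.8 ± 2.22), and with HA-T354M 9, 8, 11 and 11 (9.75 ± 1.5). The wild-type range lay above that of the empty-vector GATA2-low libraries, and the HA-GATA2 range lay above that of the HA-T354M libraries, with no overlap in either case. All protein-coding genes separated in the same way. The share of them with a peak was 22.7% to 30% in wild-type against 6.65% to 12.5% in GATA2-low empty-vector libraries. It was 20.1% to 29.9% with HA-GATA2 against 9.11% to 19.8% with HA-T354M. Each list was also cut to its strongest peaks, as many as the shortest list of the 8 libraries compared. The differences in means of these comparisons then went from 7 to 1 and from 8 to -0.5. Such a cut brings counts together whatever made the lists differ, and the part of list length was not tested. With lists at equal depth the differences were 4.25 and 8. With anti-HA, the HA-GATA2 libraries had a peak at 10, 9, 12 and 4 of the genes and the HA-T354M libraries at 0, 1, 3 and 2. The empty-vector anti-HA libraries had none.

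The mean share of receptor genes with a peak was above that of all genes in each group with peaks at receptor genes. It was 31.2% against 25.4% of all protein-coding genes in wild-type cells, 13.8% against 8.57% in GATA2-low empty-vector cells, 44.4% against 26.4% with HA-GATA2 and 24.4% against 16.1% with HA-T354M (group means). Under anti-HA it was 21.9% against 12.8% with HA-GATA2 and 3.75% against 2.35% with HA-T354M. The receptor genes are longer than most, with a median window of 70784 bp against 44190 bp, and longer windows held peaks more often in all genes. Among genes with windows of 44193 to 85237 bp, which include 19 of the 40, the HA-GATA2 anti-GATA2 libraries had a peak at 48.7% of receptor genes and 28.7% of all genes. Among genes with longer windows, 13 of the 40, the values were 50% and 43.1%, and in wild-type cells 30.8% and 35.4%.

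**Figure D2:**
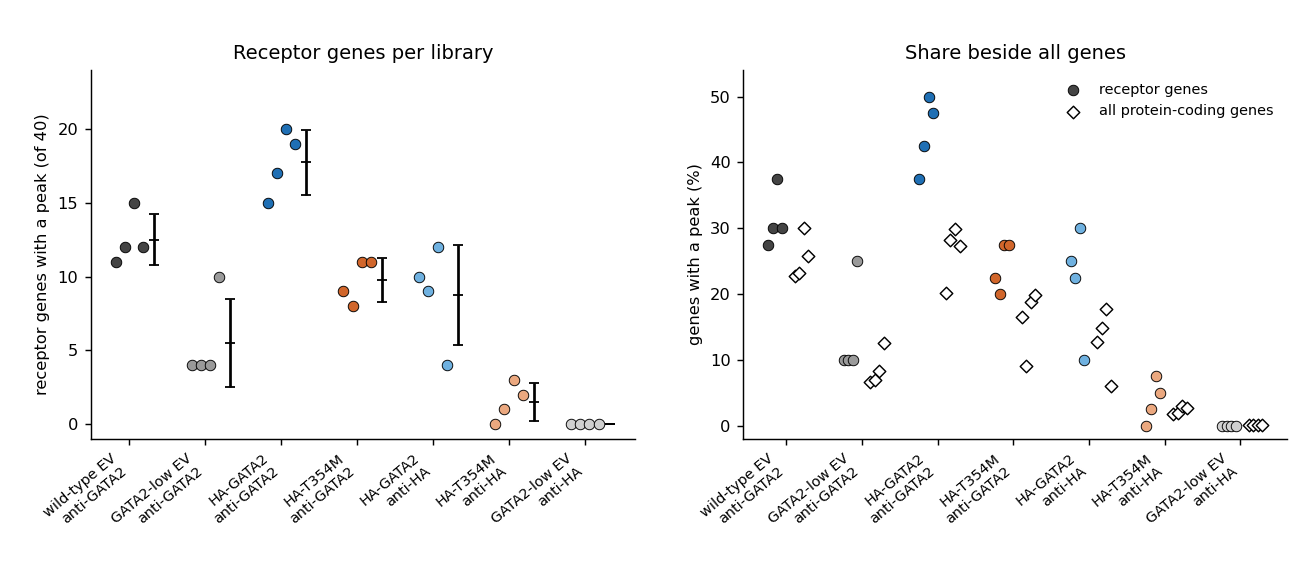
Left, receptor genes with a peak (of 40) in each library by group, with the group mean and SD as a bar (n = 4). Right, the same as a percentage (circles) beside the percentage of all protein-coding genes with a peak in the same library (diamonds). HA-GATA2 anti-GATA2 libraries reach 15 to 20 genes and empty-vector anti-HA libraries 0.

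No peak was found in or within 10 kb of any gene of the beta-common family. These are the shared subunit CSF2RB and the ligand-binding chains CSF2RA, IL3RA and IL5RA of the GM-CSF, IL-3 and IL-5 receptors. The nearest summit of any library lay 12050 bp from CSF2RB, and 67751 to 127919 bp from the ligand-binding chain genes. CSF2RA and IL3RA lie in a stretch that the X and Y chromosomes share and were read on X alone, as was IL9R below. The granulocyte colony-stimulating factor receptor gene CSF3R also had none. The other genes without a peak were IL7R, IL2RG, IL10RA, IL11RA, IL13RA1, IL17RA, IL18R1, IL1RAP, LIFR, OSMR, CXCR4, TGFBR3, ACVR2A and TNFRSF1B. For 14 of these 19 genes the nearest summit of any library lay more than 50 kb away, and the median distance over the 19 was 81117 bp. It lay 17641 bp from IL18R1 and 25864 bp from CXCR4. With a window of 50 kb, both had an anti-GATA2 peak in all HA-GATA2 and all HA-T354M libraries and in no GATA2-low empty-vector library. A missing peak means that no signal passed the caller's threshold in that list, not that GATA2 was absent.

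At the other end, IL9R, IL10RB and IL1R1 had a peak in all 16 anti-GATA2 libraries. Of all protein-coding genes, 929 (4.65%) did so. IL9R encodes the interleukin-9 receptor chain that pairs with the common gamma chain. It lies in a stretch shared by the X and Y chromosomes, and the coordinates are those of X. Its strongest site, inside the gene at chrX:156001199-156002036, had a deposited fold enrichment over local background of 38.8, 25.8, 38.8 and 32.7 in the wild-type libraries (replicates 1 to 4). The values were 13.4, 17.5, 20.9 and 17.3 in GATA2-low empty-vector cells, 32.4, 35.8, 46.9 and 42.5 with HA-GATA2 and 27.1, 17, 33 and 35.1 with HA-T354M. Fold enrichments are the authors' values per peak and depend on the depth of a library, so they describe a peak within its own list and are not compared between lists. Within its list, ranked by the deposited q with 100 the strongest, this peak stood at percentile 83 to 92.6 in wild-type cells. In GATA2-low empty-vector cells it stood at 54.2 to 79.1. A percentile falls when weak peaks leave a list, and the GATA2-low lists held 1823 to 3648 peaks against 6555 to 9121 in wild-type cells. Percentiles are therefore not compared between lists either. Under anti-HA the site had a peak with HA-GATA2 in replicates 1 and 3 and in no HA-T354M library. A second site overlapped the printed IL9R promoter (chrX:155997484-155997885). Under anti-GATA2 it was in 3 wild-type, 2 GATA2-low empty-vector, 4 HA-GATA2 and 4 HA-T354M libraries. In each of these 13 its summit lay in the promoter window, which is the printed stretch and a short run past the start.

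IL10RB encodes the receptor chain shared by interleukin-10, interleukin-22 and the lambda interferons. Its site at chr21:33304404-33305308, 38568 bp into the gene, was the receptor site seen in the most libraries. The deposited fold was 36.9, 27.5, 42.7 and 33 in wild-type, 14, 10.9, 11.6 and 22.8 in GATA2-low empty-vector, 25, 29.9, 35.8 and 21.6 with HA-GATA2 and 12.9, 9.61, 17.4 and 16.2 with HA-T354M under anti-GATA2. Under anti-HA it was 26.9, 16.2, 23.2 and 19.8 with HA-GATA2 and 7.67, 14.3 and 10.9 in HA-T354M replicates 2, 3 and 4. The other IL10RB sites were less constant. The site at chr21:33280915-33281555 was in 4 wild-type, 1 GATA2-low empty-vector, 4 HA-GATA2 and 3 HA-T354M libraries under anti-GATA2. The site at chr21:33301102-33301794 was in 4, 2, 4 and 3 of them in the same order. The site at chr21:33268562-33268975, 2382 bp into the gene, was in 4 HA-GATA2 anti-GATA2 libraries with folds of 12.5, 13.6, 11.6 and 20.5 and in anti-HA replicates 1, 2 and 3 of the same cells. It was in no library of the other groups. Like the site at chr21:33280915-33281555, it also lies in an annotated readthrough of IFNAR2 and IL10RB.

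IL1R1, the signalling receptor of interleukin-1, had its site across the annotated 5′ end of the gene (chr2:102069199-102070540), with the median summit just outside the body and no start of the promoter table within 1000 bp. It had a peak in all 16 anti-GATA2 libraries, at percentile 83.2 to 91 of the wild-type lists and 55.4 to 84.9 of the GATA2-low empty-vector lists. As these lists differ in length, the percentiles are not compared. Under anti-HA the site had a peak with HA-GATA2 in all 4 libraries (deposited fold 6.01, 9.71, 14.4 and 5.84) and with HA-T354M in none.

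**Figure D3:**
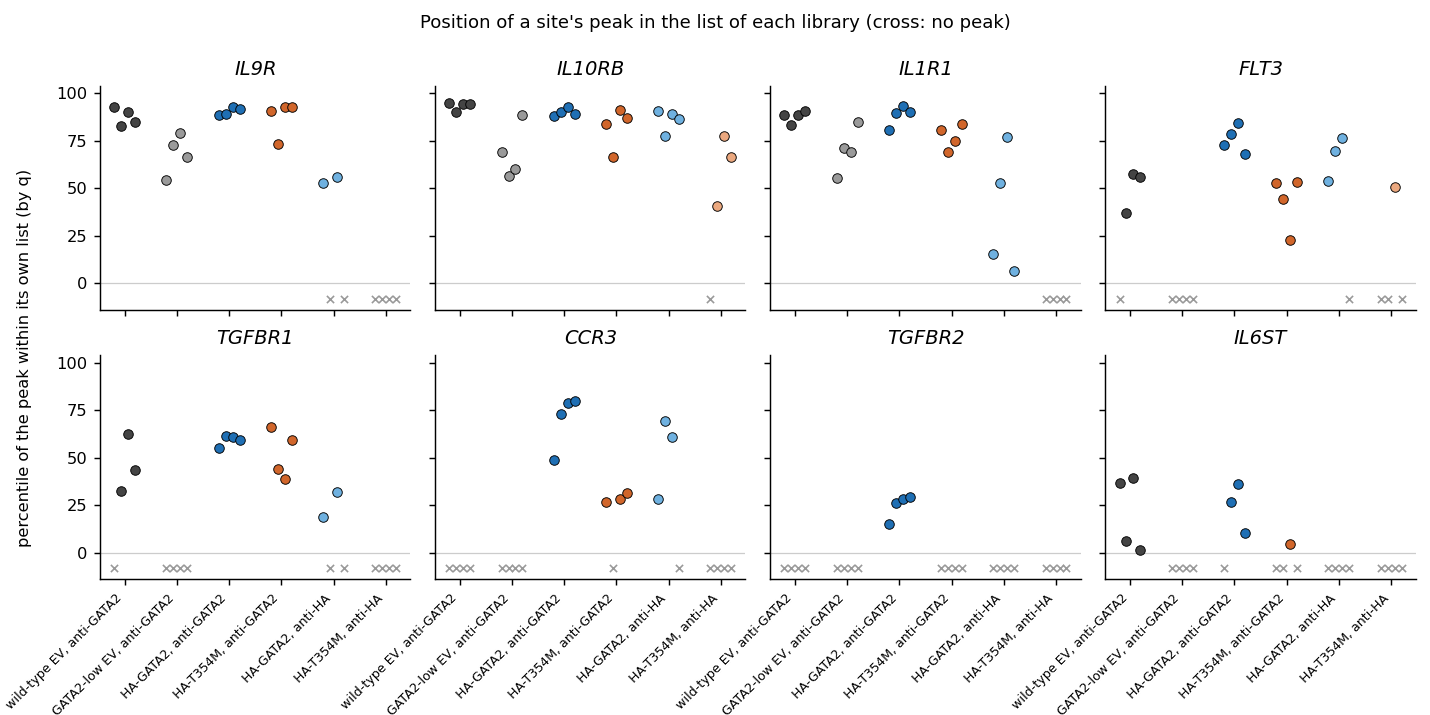
The percentile of a site's peak within the list of its own library (100 is the strongest by q) at 8 receptor sites, 1 point per library and a cross where the library has no peak. The lists differ in length, so percentiles are not compared between groups. The IL9R, IL10RB and IL1R1 sites have a point in all 16 anti-GATA2 libraries, and the TGFBR2 site has points with HA-GATA2 under anti-GATA2 alone, at 15.1 to 29.

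The comparison of wild-type with GATA2-low cells, both with empty vector, asks which genes have peaks in fewer libraries of the cells labelled GATA2-low. Of 15 receptor genes with a peak in any of the 8 libraries, 6 had a peak in at least 3 more wild-type than GATA2-low libraries, against 36.7% of the 6953 protein-coding genes with a peak there, and 0 went the other way (0.0431%). These were FLT3, CSF1R, IL6ST, IL4R, TGFBR1 and IGF1R. IL6ST alone had a peak in every wild-type library and in no GATA2-low one (exact two-sided Fisher p = 0.0286, the smallest that 4 against 4 allows; background 15.8%), and 0 receptor genes stood the opposite way (0.0144%). With Benjamini-Hochberg adjustment over the 6953 genes, the Fisher test called 0 genes, and 1 receptor gene was below 0.05 without adjustment. Adjusted over the 1240 genes that had a peak in 4 of these libraries, no more and no fewer, it called IL6ST (background 88.5%). The 6 of 15 stand near the background share and the 1 of 15 under it.

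IL6ST encodes gp130, the signal-transducing chain shared by the interleukin-6, interleukin-11, LIF and oncostatin M receptors. Its peak covered the printed promoter (chr5:55994837-55995449) with a deposited fold of 11.2, 6.08, 11.9 and 5.93 in the wild-type libraries. These are low in their lists, with percentiles of 36.6, 6.31, 39 and 1.26. With HA-GATA2 the peak was in replicates 2, 3 and 4 (8.97, 12.1 and 7.11), with HA-T354M in replicate 3 (6.08), and under anti-HA in no library. The wild-type and GATA2-low groups did not overlap, but with all lists brought to the lowest depth of the 8 libraries, or at a deposited -log10 q of at least 15, no receptor gene was 4 of 4 against 0 of 4. With lists cut to equal length 0 receptor genes met that rule in any of the 5 comparisons. Of its family, IL6R, the interleukin-6-binding chain, had a peak in 1 wild-type and 2 HA-GATA2 anti-GATA2 libraries, spread over 5 sites.

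CSF1R encodes the macrophage colony-stimulating factor receptor. Its most frequent site, at chr5:150045752-150046315, lies in the flank and inside the neighbouring gene HMGXB3. It had folds of 7, 8.18, 14.1 and 12.6 in wild-type libraries, no peak in GATA2-low empty-vector libraries, and 11.9, 11, 14.3 and 10.7 with HA-GATA2. With HA-T354M it was in replicate 3 under anti-GATA2 (9.5), and under anti-HA in HA-GATA2 replicate 2 (7.98). A site inside CSF1R (chr5:150103035-150103361) was in wild-type replicates 3 and 4, GATA2-low empty-vector replicate 4 and HA-GATA2 replicate 4.

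IL4R, the interleukin-4-binding chain, had 2 sites. The intragenic site at chr16:27351936-27352452 was in wild-type replicates 2, 3 and 4, in GATA2-low empty-vector replicate 4 and in all 4 HA-GATA2 libraries (11.8, 13.9, 14.4 and 12.4). It was also in HA-T354M replicate 4 (7.86) and, under anti-HA, in HA-GATA2 replicates 1 and 3 (6.26 and 11.4). The site beyond the 3′ end at chr16:27367207-27368047 was in all 4 wild-type libraries (7.96, 5.36, 7.83 and 8.46), in all 4 HA-GATA2 libraries (5.59, 7.68, 7.61 and 8.21) and in 0 GATA2-low empty-vector and 0 HA-T354M libraries. Under anti-HA it was in HA-GATA2 replicates 2 and 3 (6.56 and 7.41). IGF1R, the receptor of insulin-like growth factor 1, had a site at chr15:98776710-98777180 in all 4 wild-type libraries (7.26, 4.87, 15.3 and 15.3), in HA-GATA2 replicates 3 and 4, and in GATA2-low empty-vector replicate 4. IL2RB, the beta chain of the interleukin-2 and interleukin-15 receptors, had a peak at chr22:37149865-37150269 in wild-type replicates 1, 2 and 3 and GATA2-low empty-vector replicate 4, and in no library with a tagged protein.

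GATA2-low empty-vector replicate 4 decided several of these values. In it CSF1R, IL2RB, IL4R, TNFRSF1A and IGF1R had a peak that the other 3 libraries of the group lacked. Without it, 4 receptor genes were in all wild-type and no GATA2-low libraries (CSF1R, IL6ST, IL4R and IGF1R). Without wild-type replicate 1 there were 3 (FLT3, IL6ST and TGFBR1). Leaving out a library also changes the share of all genes that meet the rule, which is not given here for these counts.

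At single sites, 4 of 26 receptor sites with a peak in these 8 libraries were in every wild-type and no GATA2-low library, against 13.7% of all sites, and 0 stood the opposite way (0.0179%). They were the IL6ST promoter site, the CSF1R flank site, the IL4R 3′ site and the most distal BMPR2 site. The intragenic IL9R site at chrX:156001199-156002036, the IL10RB site at chr21:33304404-33305308 and the IL1R1 site at the 5′ end were in all 8.

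The comparison of HA-GATA2 with empty vector in GATA2-low cells asks where the tagged protein restores or adds occupancy under anti-GATA2. It uses the same empty-vector libraries as the first comparison. Of 21 receptor genes with a peak, 12 had a peak in at least 3 more HA-GATA2 libraries (background 45.3% of 6640 genes), and 0 went the other way. These were FLT3, CSF1R, IL6ST, IL2RA, IL4R, IL15RA, CCR3, TGFBR1, TGFBR2, TNFRSF1A, INSR and SPRED1. Of them FLT3, IL2RA, CCR3, TGFBR1, TGFBR2, INSR and SPRED1 had a peak in every HA-GATA2 library and in no empty-vector one. That is 7 of 21, against 23.4% of all genes. Each has an exact Fisher p of 0.0286, and the test adjusted over the 6640 genes called 0. Adjusted over the 1737 genes with a peak in 4 of these libraries, no more and no fewer, it called the 7 (background 89.3%). With lists at equal depth TGFBR2 and SPRED1 no longer met the rule and the other 5 genes did. At single sites, 12 of 44 receptor sites were in every HA-GATA2 and no empty-vector library (all sites 23.8%).

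FLT3, the kinase receptor of early blood progenitors, had 1 site, at chr13:28093754-28094757, inside the gene and 6490 bp downstream of its start. The deposited fold was 24.1, 30.1, 38.2 and 23.8 with HA-GATA2 and 14.2, 13.1, 10.4 and 16 with HA-T354M, and 11.5, 16.1 and 16.4 in wild-type replicates 2, 3 and 4. No GATA2-low empty-vector library had it. Under anti-HA it had a peak with HA-GATA2 in replicates 1, 2 and 3 (12.6, 17.6 and 19.1) and with HA-T354M in replicate 3 (10.7).

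TGFBR1 and TGFBR2 encode the type I and type II receptors of TGF-beta, which act as 1 complex. Their occupancy differed between groups. The TGFBR1 site at chr9:99113269-99113894 was in wild-type replicates 2, 3 and 4 (10.8, 17.7 and 13.1), in all 4 HA-GATA2 libraries (17.2, 20, 20.3 and 20.2) and in all 4 HA-T354M libraries (17.3, 13.1, 13 and 17.1). Under anti-HA it was in HA-GATA2 replicates 1 and 3 (8.58 and 10.4). The TGFBR2 site at chr3:30621645-30622172 was in the 4 HA-GATA2 libraries under anti-GATA2 (9.99, 12, 12.5 and 12.1) and in no other library. Its peaks stood at percentile 15.1 to 29 of their lists, and their deposited -log10 q was 12.8, 16.4, 17.9 and 18.1, so that replicate 1 drops out at a threshold of 15.

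CCR3, the eotaxin receptor of eosinophils and basophils, had a site at chr3:46228184-46229198 with folds of 15.6, 25.6, 31.3 and 31.9 with HA-GATA2. It was in HA-T354M replicates 1, 3 and 4 (10.6, 11.4 and 11.7) and, under anti-HA, in HA-GATA2 replicates 1, 2 and 3 (9.97, 16.1 and 14.5). No empty-vector library, wild-type or GATA2-low, had a peak there. IL2RA, the high-affinity interleukin-2 chain, had a site at chr10:6038052-6038562 with HA-GATA2 (11.9, 16.5, 19.7 and 14.6), in HA-T354M replicate 4 (10.6) and in no wild-type or empty-vector library. Under anti-HA the IL2RA site had a peak in no library.

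The insulin receptor gene INSR had a site at chr19:7181874-7182119 in the 4 HA-GATA2 libraries (11.5, 12.9, 16.1 and 11.1), in wild-type replicate 3 (7.05) and under anti-HA in HA-GATA2 replicate 3. SPRED1, an inhibitor of RAS and MAP kinase signalling that acts downstream of receptors, had a site at chr15:38323854-38324189 in the 4 HA-GATA2 libraries (10.3, 17.5, 22.9 and 18.1) and no other library. A second SPRED1 site, 1954 bp into the gene, was in HA-GATA2 replicates 2 and 4 and in anti-HA replicate 3. IL15RA, the interleukin-15-binding chain, had weak peaks at 3 sites in HA-GATA2 replicates 2, 3 and 4, none shared by all of them. ENG, which encodes the TGF-beta co-receptor endoglin, had a peak in HA-GATA2 replicate 3 alone.

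TNFRSF1A, the main receptor of tumour necrosis factor, had its sites in different groups. The site inside the gene, at chr12:6337292-6338035, was in all 4 HA-GATA2 libraries (12.2, 15.4, 18.2 and 20.9) and all 4 HA-T354M libraries (7.3, 5.84, 12.1 and 17.3) and in no empty-vector library, wild-type or GATA2-low. Under anti-HA it was in HA-GATA2 replicates 1, 2 and 3 (10.8, 11.9 and 11.8). The upstream site at chr12:6345462-6345792 was in wild-type replicates 1, 3 and 4, GATA2-low empty-vector replicate 4, HA-GATA2 replicates 2, 3 and 4 and HA-T354M replicates 3 and 4. The gene's counts, 3 of 4 wild-type and 4 of 4 HA-GATA2 libraries, thus come from different sites.

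Set directly against each other, HA-GATA2 and wild-type libraries had 4 receptor genes in 4 of 4 against 0 of 4 libraries, which were IL2RA, CCR3, TGFBR2 and SPRED1, out of 21 (all genes 4.83% of 8253). The other way there were 0 receptor genes, and 162 of the 8253 genes. This comparison was added after the values were seen and was not tested. Of the 14 receptor sites in 4 of 4 wild-type libraries, 12 were in 4 of 4 HA-GATA2 libraries (all sites 78.6%) and 7 in 4 of 4 HA-T354M libraries (all sites 48.5%).

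The HA-T354M and empty-vector libraries, which share the empty-vector controls with the comparisons above, had 15 receptor genes with a peak. Of these, 4 had a peak in at least 3 more HA-T354M libraries (FLT3, CCR3, TGFBR1 and TNFRSF1A; background 18.9% of 4917 genes), and 0 went the other way (0.224%). FLT3 and TGFBR1 were in 4 of 4 against 0 of 4 (background 4.29%, exact Fisher p = 0.0286), and no receptor gene stood the opposite way (0.0203%). The test adjusted over the 4917 genes called 0. With lists at equal depth FLT3 no longer met that rule and TGFBR1 did. Single sites in every HA-T354M and no empty-vector library were those of FLT3 and TGFBR1, the intragenic TNFRSF1A site and the most distal BMPR2 site, 4 of 23 (all sites 5.87%), and 0 stood the opposite way (0.0394%).

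The comparison of HA-GATA2 with HA-T354M under anti-GATA2 asks at which genes occupancy differs between cells with the tagged proteins. The amounts of these proteins were not among the values used. The substitution and a difference in amount thus cannot be told apart, here or under anti-HA. Depth on the caller's scale was alike in these 8 libraries, as given above, but the caller had scaled them down. Without that scaling the lowest background was 0.427 to 0.434 with HA-GATA2 and 0.42 to 0.587 with HA-T354M. Of 20 receptor genes with a peak, 7 had a peak in at least 3 more HA-GATA2 libraries (CSF1R, IL2RA, IL4R, IL15RA, TGFBR2, INSR and SPRED1; background 22.2% of 7056 genes), and 0 went the other way (0.964%). TGFBR2, INSR and SPRED1 had a peak in every HA-GATA2 library and in no HA-T354M one (background 8.30%, exact Fisher p = 0.0286), and 0 genes passed adjustment over the 7056. Adjusted over the 904 genes with a peak in 4 of these libraries, no more and no fewer, the test called the 3 (background 64.8%). With lists at equal depth, a background of 0.28, the 3 genes still met the rule. On the caller's scale these lists began at 0.28 to 0.305, so that setting could change little. At a deposited -log10 q of at least 15, TGFBR2 and SPRED1 no longer met the rule, while CSF1R, IL2RA and IL4R did beside INSR, which gave 4 genes. Without HA-T354M replicate 4, and with no higher threshold, IL2RA and IL4R joined TGFBR2, INSR and SPRED1, which gave 5 genes. The share of all genes that met the rule under these altered settings is not given here.

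Some receptor sites had an anti-GATA2 peak in every library of the cells with either tagged protein. Of 43 receptor sites with a peak in these 8 libraries, 11 were in all 8. They were the FLT3, IL1R1 and TGFBR1 sites, the promoter site and the chrX:156001199-156002036 site of IL9R, the IL10RB site in all anti-GATA2 libraries, the intragenic ACVR1B and TNFRSF1A sites and 3 BMPR2 sites. The share of all sites in all 8 is not given here. Of the 11, 3 were also in every GATA2-low empty-vector anti-GATA2 library (IL9R, IL10RB and IL1R1). Under anti-HA, 3 of the 11 had a peak in any HA-T354M library (FLT3, IL10RB and ACVR1B). A further 5 were in all HA-GATA2 and no HA-T354M libraries (background 10.2% of all sites), and 0 the opposite way (0.0344%). They were the TGFBR2, INSR and SPRED1 sites, the 3′ IL4R site and the IL10RB site nearest to its start.

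BMPR2, the type II receptor of bone morphogenetic proteins, had the most sites of the receptor genes, 6. Its site at chr2:202386350-202388532, 11537 bp into the gene, had a fold of 30, 29.8, 28.1 and 32.7 in wild-type libraries, 17.1, 10.8 and 25.2 in GATA2-low empty-vector replicates 2, 3 and 4, 37.7, 42, 64 and 64.1 with HA-GATA2 and 33.4, 26.9, 41.9 and 40 with HA-T354M. The site at chr2:202442548-202443431 was in 4 wild-type, 2 GATA2-low empty-vector, 4 HA-GATA2 and 4 HA-T354M libraries under anti-GATA2. The most distal site, at chr2:202555333-202555915, was in 4, 0, 4 and 4 of them, with folds of 16.2, 16.3, 18.4 and 10.7 in wild-type cells. The 3 remaining BMPR2 sites were seen with HA-GATA2 under anti-GATA2 alone, in 1 to 3 libraries.

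ACVR1B, a type I activin receptor, had a site in the gene at chr12:51972226-51973272 in 4 wild-type, 1 GATA2-low empty-vector, 4 HA-GATA2 and 4 HA-T354M libraries under anti-GATA2. Under anti-HA it was in all 4 HA-GATA2 libraries (26.8, 23.8, 24.2 and 12.2), at percentile 78.1 to 95.7 of their lists, and in HA-T354M replicates 3 and 4 (7.6 and 10.2). The ACVR1B site that overlaps the printed promoter (chr12:51951137-51951559) was in 4 wild-type libraries (11.9, 19.7, 16.8 and 17.3), GATA2-low empty-vector replicate 1 (11.1), 4 HA-GATA2 libraries and HA-T354M replicates 1, 3 and 4. Its summit lay in the promoter window of a listed start of the gene, which also runs a little past that start, in 6 libraries.

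**Figure D4:**
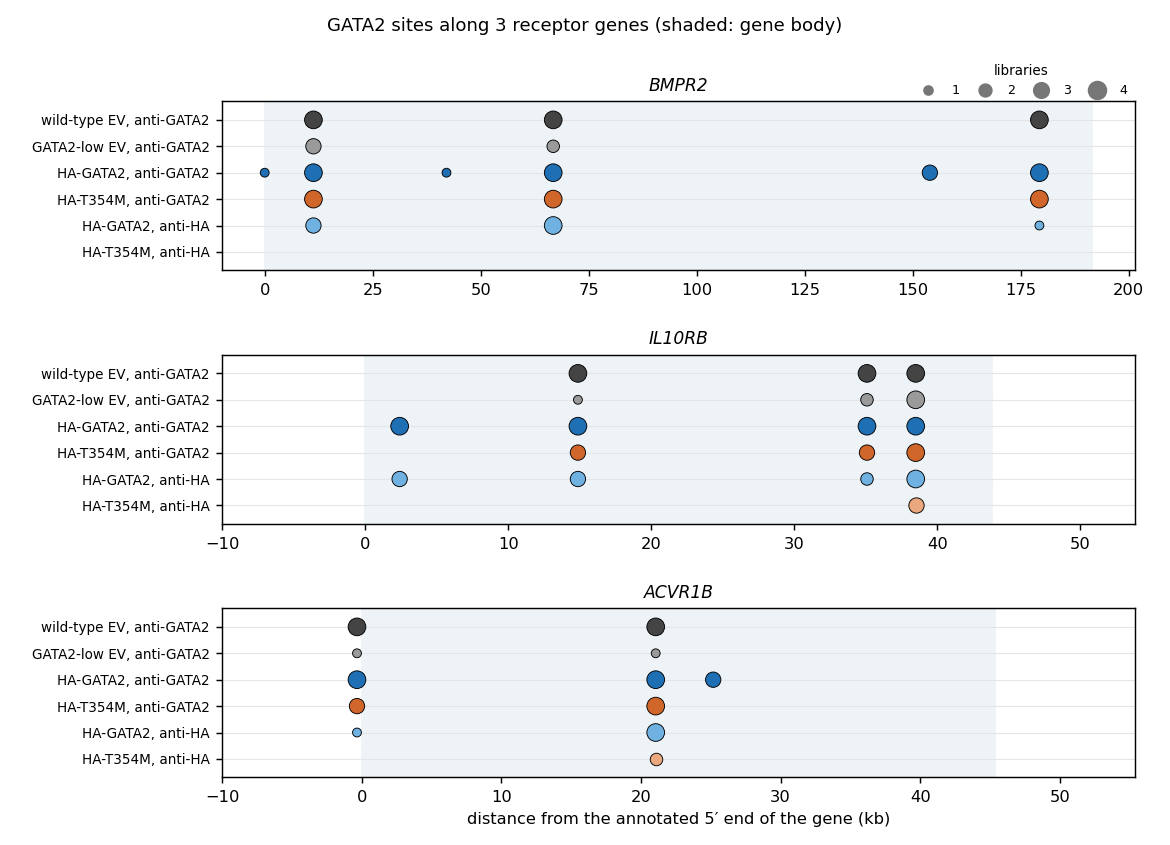
Sites along BMPR2, IL10RB and ACVR1B by distance in kb from the annotated 5′ end of the gene (shaded: gene body), with 1 row per group and the size of a circle giving the number of libraries with a peak. The BMPR2 site farthest from the start has circles in the wild-type, HA-GATA2 and HA-T354M anti-GATA2 rows and none in the GATA2-low empty-vector anti-GATA2 row.

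Under anti-HA, the comparison of HA-GATA2 with HA-T354M reads the tagged proteins alone. Of 13 receptor genes with a peak, 5 had a peak in at least 3 more HA-GATA2 libraries (IL4R, IL1R1, CCR3, BMPR2 and TNFRSF1A; background 40.4% of 4033 genes), and 0 went the other way. IL1R1 and BMPR2 were in 4 of 4 against 0 of 4 (background 14.0%, exact Fisher p = 0.0286), and 0 genes passed adjustment over the 4033. Adjusted over the 681 genes with a peak in 4 of these libraries, no more and no fewer, the test called both (background 82.7%). At single sites 2 of 20 met the same rule (all sites 13.6%). The BMPR2 site was the one at chr2:202442548-202443431 (16.4, 14.6, 24.4 and 9.89). With lists at equal depth IL1R1 no longer met the rule and BMPR2 did. HA-GATA2 anti-HA replicate 4 had the fewest receptor genes of its group, 4, and without it 5 genes were in all HA-GATA2 and no HA-T354M libraries (IL4R, IL1R1, CCR3, BMPR2 and TNFRSF1A). The share of all genes without that library is not given here. The receptor genes with any anti-HA peak in HA-T354M cells were FLT3 in 1 library, ACVR1B in 2 and IL10RB in 3.

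The antibodies could be set against each other at the same sites. Of 23 receptor sites in all 4 HA-GATA2 anti-GATA2 libraries, 19 had an anti-HA peak in at least 1 HA-GATA2 library, against 77% of all such sites, and 10 in at least 3. Each of the 20 receptor sites with an anti-HA peak in HA-GATA2 cells also had an anti-GATA2 peak there. For this and for the 10 sites, the share over all sites is not given here. Of 11 receptor sites in 4 of 4 HA-T354M anti-GATA2 libraries, 3 had an anti-HA peak in any HA-T354M library, against 34.8% of all such sites.

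The 47 receptor sites lay mostly within genes and away from starts. Of them 35 had their summit in the gene body, and 5 of the 46 whose gene has a listed start lay within 1000 bp of one (10.9%, against 19.1% of all sites and any start). A single library accounted for 12 of the 47 (25.5%, against 20.9% of all sites).

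Genes that act downstream of these receptors were counted the same way. Of 50 signalling genes, which were JAK, STAT, SOCS, RAS pathway and SMAD genes among others, 31 had a peak in some library (all genes 42.1%). The mean number with a peak was 22.8 ± 2.63 (SD, n = 4) in wild-type, 8.25 ± 3.95 in GATA2-low empty-vector, 24 ± 1.41 with HA-GATA2 and 15 ± 4.83 with HA-T354M under anti-GATA2. Of all protein-coding genes, 25.4%, 8.57%, 26.4% and 16.1% had a peak in these groups (group means, same order). Of 28 signalling genes with a peak in the libraries compared, 5 had one in every wild-type and no GATA2-low library (all genes 15.8%). For HA-GATA2 against empty vector it was 9 of 27 (23.4%), for HA-T354M against empty vector 0 of 22 (4.29%), and for HA-GATA2 against HA-T354M under anti-GATA2 2 of 27 (8.30%). GAB2, SMAD2 and STAT6 were in 4 wild-type, 0 GATA2-low empty-vector and 4 HA-GATA2 libraries. With HA-T354M they were in 2, 3 and 2 libraries. SMAD4, the partner of the receptor-activated SMADs, was in 0 wild-type, 0 GATA2-low empty-vector, 4 HA-GATA2 and 0 HA-T354M libraries.

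Of 37 other receptor genes, 16 had a peak in some library (all genes 42.1%), with a mean of 10 ± 1.15 in wild-type, 4.25 ± 1.26 in GATA2-low empty-vector, 13 ± 0.816 with HA-GATA2 and 7 ± 1.83 with HA-T354M under anti-GATA2. In every wild-type and no GATA2-low library were 2 of 13 (all genes 15.8%). For HA-GATA2 against empty vector it was 6 of 15 (23.4%), and for HA-T354M against empty vector 2 of 11 (4.29%). For HA-GATA2 against HA-T354M under anti-GATA2 it was 3 of 14 (8.30%). IL1RL1, the interleukin-33 receptor, was in 4, 0, 4 and 4 anti-GATA2 libraries in the order of the means. Among receptors whose ligands were in the medium, KIT was in 3, 0, 4 and 4 and EPOR in 4, 1, 2 and 0 anti-GATA2 libraries in the same order.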

How the data were processed

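CUT&Tag libraries of HUDEP-2 cells were described for 36 samples, and 28 peak lists in 7 groups of 4 were used; the 8 IgG libraries were not analysed here. Groups and replicate numbers came from the titles. For replicate 1 of the GATA2-low empty-vector cells under anti-GATA2 the genotype tag says wild-type; the title, which says GATA2-low, was used. The genome build was hg38 and the tools included MACS2 2.2.7.1, Bowtie2 2.2.5, cutadapt 3.3 and deepTools 3.5.3, per the submitters' processing notes, which as held here list no settings. The authors called peaks per library, and each deposited peak has a score, a linear fold enrichment (a ratio to local background) and p and q values as -log10. The lowest deposited -log10 q was 6. Of 120964 deposited peaks 120509 lay on chromosomes 1 to 22 and X and were used.

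Gene bodies and promoters came from RefSeq tables of GRCh38.p14. A gene was counted when at least 1 summit fell inside it or no more than 10 kb away. Sites are peaks of all libraries merged on any overlap. Libraries with and without a peak were compared per gene by a two-sided exact Fisher test with Benjamini-Hochberg adjustment over all genes with a peak in the 8 libraries and a threshold of 0.05, in scripts checked on simulated data (Python 3.11.15, scipy 1.17.1, pandas 2.3.3). The receptor genes and the other lists were chosen with earlier results of these data known. Values were given for genes that differ by 3 or more libraries in a comparison or are in all 16 anti-GATA2 libraries, and the remaining genes with peaks were named after their values were seen. Depth was estimated from fragments and background recovered from the deposited fold and p within 0.03%, with the lowest 1% of background as the library's value; the caller had scaled down the anti-GATA2 libraries of cells with a tagged protein. Alternatives were other windows, a higher q threshold, lists of equal length or depth, peak overlap in place of summits, a replicate block, another adjustment and leaving out each library. Some genes that the rule covers are not reported here.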

Additional observations from a re-analysis of the deposited data

Results flagged for a closer look

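In the GATA2-low empty-vector anti-GATA2 group, replicate 4 had a peak at 10 of the 40 receptor genes while the other 3 libraries had 4 each, so it stands apart from them by more than the gap expected within 4 samples. The genes with a peak in that library alone were CSF1R, IL2RB, IL4R, TNFRSF1A and IGF1R. It also held the most peaks of its group, 3648 against a group median of 2125. The 6 groups with peaks at receptor genes were checked, and chance marks about 1 in 20 groups. The part of list length in this value was not tested.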

How the results depend on the processing

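The comparisons are written here as wild-type against GATA2-low empty vector (A), HA-GATA2 against empty vector (B), HA-T354M against empty vector (C), HA-GATA2 against HA-T354M under anti-GATA2 (D) and under anti-HA (E). The mean differences in receptor genes with a peak per library were 7, 12.2, 4.25, 8 and 7.25. Lists cut to equal length, which hold 1823, 1823, 1823, 2779 and 426 peaks, gave 1, 1, 1.75, -0.5 and 0.25, so D changed sign and the others shrank; the shorter lists keep fewer genes by construction. A window of 50 kb gave 11, 16, 7.5 and 11 in A, B, C and E, and equal depth gave 4.25 in A. The genes in 4 of 4 against 0 of 4 libraries numbered 1, 7, 2, 3 and 2. The share of all genes that met this rule is not given here for the alternatives. With lists of equal length the receptor genes that met it were 0 in all 5 comparisons. With 50 kb they were 4, 4 and 4 in A, C and E. With gene bodies alone they were 0 in A and 1 in E, and both with -log10 q of at least 15 and at equal depth they were 0, 1 and 1 in A, C and E. Leaving out 1 library gave differences of 6.17 to 8.5, 11.5 to 13.8, 3.75 to 5.75, 7.25 to 8.92 and 6.17 to 8.83, and counts of 1 to 4, 7 to 10, 2 to 3, 3 to 5 and 2 to 5; in the other direction the counts were 0 to 0 throughout. The Fisher test adjusted over the genes that had a peak in 4 of a comparison's libraries, no more and no fewer, called 1, 7, 0, 3 and 2 receptor genes, against 0 in all over every gene tested. Beside the leave-one-out values, the alternatives left 76 values on the same side, moved 29 and turned 1. The replicate numbers do not pair the libraries: of 20 same-numbered pairs 1 correlated above 0.1 (-0.048 to 0.112), and 5 libraries matched their own number best. The replicate block left the mean differences at 7, 12.2, 4.25, 8 and 7.25 (SD of paired differences 3.74, 2.99, 2.5, 1.41 and 3.59), and its exact McNemar test cannot go below p = 0.125, so 0 genes passed. With 4 libraries a group no gene could pass adjustment over all genes unless many others did.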
